A study of Rattus norvegicus with 2 samples.

Results

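Nuclear receptors are transcription factors, many of them switched by small fat-soluble ligands, and the genes encoding them were read on arrays of the duodenal mucosa from a control rat and from an immobilized rat. The genes were taken by symbol, as every probe set whose symbol follows the receptor nomenclature (Nr, a digit, a letter, a digit) or stands in a list of 32 receptor genes. Nr1d1, Nr1d2 and Nr4a1 were left out by the same rule. This gave 57 probe sets of 31 genes, out of 4736 genes named by a single symbol on the array. Of the 32 listed genes 29 had a named probe set, Rora, Nr1i2 and Nr1i3 were not analysed here, and Nr0b1 and Nr2c2 came in through the nomenclature.

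The control was a male Wistar rat, 15 weeks of age, that lived in a metabolic cage during the 2 weeks of the experiment. The immobilized rat, of the same sex, strain and age, spent those 2 weeks in an immobilization cage. Total RNA was hybridised to the Affymetrix rat U34A array, with 1 array per group, so that there was no replicate check, no test between groups and no p-value. The labels describe a rat in the singular for each array and do not mention pooling. The labels name duodenal epithelial cells as the material, whereas the series describes duodenal mucosa. In such bulk tissue, fewer cells of a type and less RNA per cell cannot be told apart.

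Most nuclear receptors share a zinc finger domain that binds DNA and a pocket that binds a ligand. The vitamin D receptor, the thyroid hormone and retinoic acid receptors, the PPARs, the LXRs and the bile acid receptor bind DNA together with a retinoid X receptor (RXR), whereas the steroid receptors bind as homodimers. In the duodenum the vitamin D receptor is known for switching on genes of active calcium uptake, and HNF4A for maintaining the enterocyte programme.

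The upstream sequences of Vdr, Rxra and Rxrb are shown because these genes encode the vitamin D receptor and the RXR partners with the largest log2 ratios of opposite sign. They cover the 250 bases before the annotated start in RefSeq (build GRCr8), written 5′ to 3′ on the gene's strand, with each GC box (GGGCGG, on either strand) in capitals. Vdr lies on the minus strand at chr7:130916758-130917007, Rxra on the plus strand at chr3:31387642-31387891 and Rxrb on the minus strand at chr20:4824660-4824909.
Vdr: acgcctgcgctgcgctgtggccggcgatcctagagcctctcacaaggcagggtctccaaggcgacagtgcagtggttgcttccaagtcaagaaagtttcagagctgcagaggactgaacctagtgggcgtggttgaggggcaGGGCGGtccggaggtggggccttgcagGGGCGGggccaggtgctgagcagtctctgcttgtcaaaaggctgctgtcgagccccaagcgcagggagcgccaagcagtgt
Rxra: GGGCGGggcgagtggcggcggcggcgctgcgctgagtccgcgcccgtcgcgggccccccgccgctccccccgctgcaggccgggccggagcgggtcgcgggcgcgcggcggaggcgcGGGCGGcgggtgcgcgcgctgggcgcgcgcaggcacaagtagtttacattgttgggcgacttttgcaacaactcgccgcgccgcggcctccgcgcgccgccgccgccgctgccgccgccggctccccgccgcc
Rxrb: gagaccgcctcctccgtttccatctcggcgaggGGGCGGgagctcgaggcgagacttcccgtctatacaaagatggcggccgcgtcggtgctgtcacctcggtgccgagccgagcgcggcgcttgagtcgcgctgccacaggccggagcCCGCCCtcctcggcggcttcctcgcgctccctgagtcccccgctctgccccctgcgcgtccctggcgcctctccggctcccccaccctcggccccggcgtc
Each of these sequences held 2 GC boxes, and 63.6% (Vdr), 82.8% (Rxra) and 74.0% (Rxrb) of their bases were G or C, against a median of 51.2% over all 33469 promoters. Of the 26 receptor genes with a promoter in the table, 16 had a GC box in at least 1 of their promoters, counted as 18 of 30 promoters, and the share among all promoters was 30.5%. The hexamer AGGTCA, which many of these receptors recognise, was present in the promoters of Nr0b1 and Nr5a2 but in no other of these 30, and in 14.1% of all promoters. Its direct repeat with a spacer of 3 bases, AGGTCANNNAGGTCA, which contains the hexamer, was in none of the 30 and in 0.0209% of all promoters. These are matches of letters in a short window and describe no binding.

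Signals were compared after the immobilized rat's array had been multiplied by 1.016 to bring the median log2 ratio to 0, and a gene was counted as detected where its brightest probe set exceeded a floor of 39.9, the 50th percentile of all signals. Of the 31 receptor genes, 19 were above the floor on both arrays (61.3%), against 53.3% of all genes. Nr4a2 and Nr4a3 were above it in the control rat only, where the share among all genes was 3.36%. No receptor was above it in the immobilized rat only, where 144 of all 4736 genes were. The other 10 genes, namely Pgr, Esr1, Thrb, Rarb, Nr2f1, Nr2f2, Nr2c2, Nr5a1, Nr5a2 and Nr0b1, were not above the floor on either array. The same held for 1909 of all 4736 genes.

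None of the 19 detected receptors differed by 2-fold between the rats, while 2.69% of all 2524 detected genes did, 2.02% with higher and 0.674% with lower signals in the immobilized rat. At 1.5-fold by the brightest probe set, 2 receptors were higher (Rxra and Nr2f6) and 3 were lower (Rxrb, Nr3c2 and Ppard), 26.3% in all, against 13.2% of all genes (8.36% higher and 4.87% lower). With probe sets averaged at this threshold, a combination added after the data were seen, Nr3c2 (-0.22) and Ppard (0.03) were not at 1.5-fold. The 4 receptors at 1.5-fold were then Rxra and Nr2f6, higher, and Rxrb and Nr3c1, lower, against 7.8% of all genes higher and 4.67% lower. Among the 19, 9 were higher and 10 lower, as were 1246 and 1278 of all genes (50.6% lower). The median log2 ratio of the receptors was -0.01 and that of all genes -0.01. The SD of the log2 ratio over genes was 0.50 for the receptors and 0.41 for all genes. Probe sets of the same gene differed with a technical SD of 0.31 on the log2 scale (696 genes, 1570 probe sets), which is error within arrays and not between animals. For the 8 receptors with several detected probe sets this SD was 0.44.

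**Figure D1:**
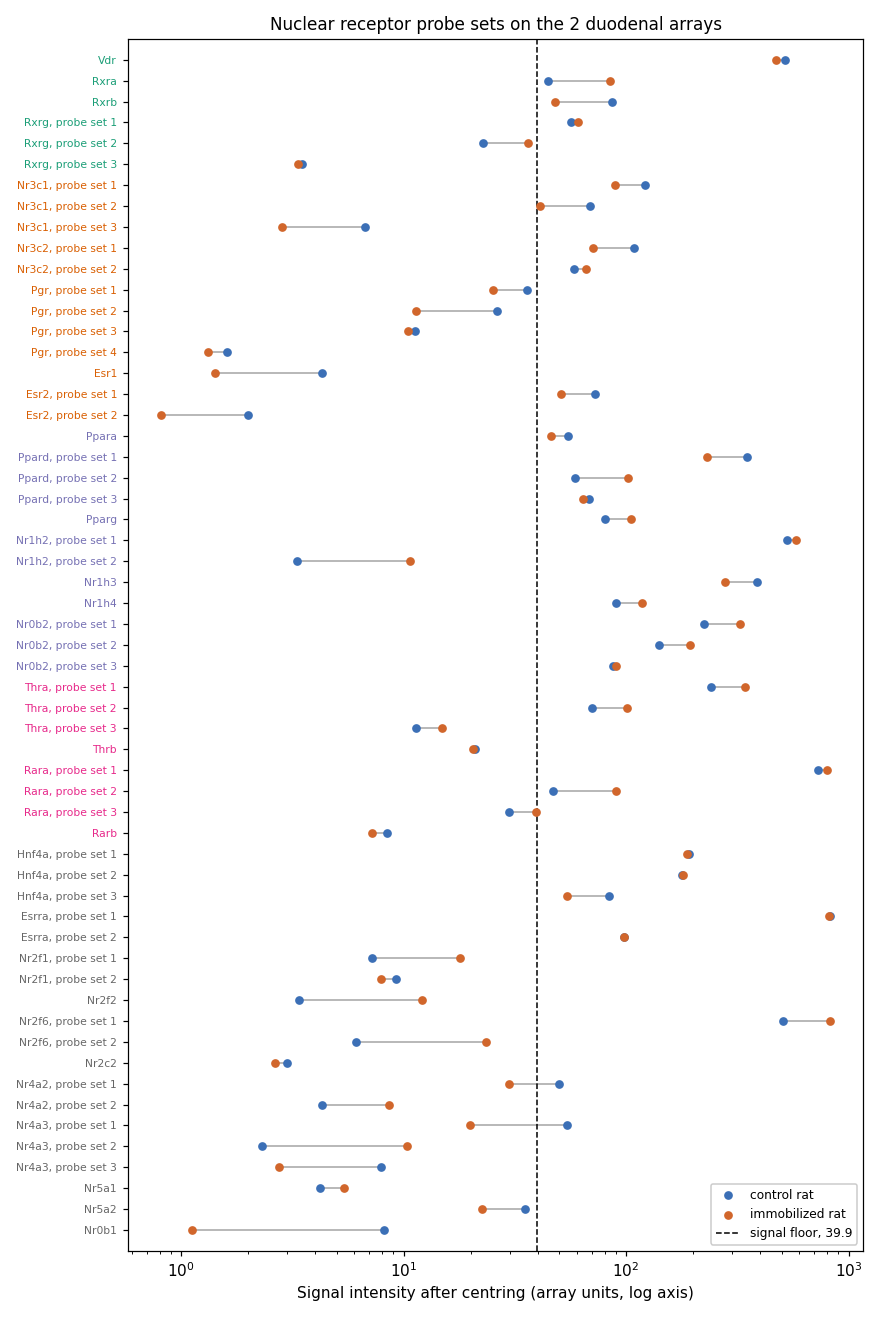
Signal of each receptor probe set (log axis, array units) in the control rat (blue) and the immobilized rat (orange), joined by a line, with the floor of 39.9 dashed. Label colours mark the groups from the vitamin D receptor and RXRs (top) to steroid, lipid and bile acid, thyroid and retinoic acid, and orphan receptors (bottom), and 25 of the 57 probe sets lie below the floor on both arrays.

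The vitamin D receptor was detected at almost the same signal in both rats, and its RXR partners differed in opposite directions. Vdr, the receptor for the active form of vitamin D, gave a signal of 516.9 in the control rat and 470.0 in the immobilized rat, a log2 ratio of -0.14. This difference was 0.44 times the technical SD, and it too rested on a single probe set. Rxra, the RXR isoform known as the main one of liver and gut, gave 44.7 in the control rat and 84.5 in the immobilized rat, 1.89-fold higher (log2 ratio 0.92). Rxrb, the broadly expressed isoform, gave 86.7 and 48.1, 1.80-fold lower (log2 ratio -0.85). These were the receptors' highest and lowest log2 ratios, at 2.96 and 2.75 times the technical SD over all genes (0.31). That SD was larger among probe sets with a mean signal under 100 (0.33) and among receptor probe sets (0.44). Each of the 2 ratios rested on a single probe set with 1 of its signals close to the floor. Rxrg, the isoform of muscle and brain, gave 56.4 and 61.1 at the detected one of its 3 probe sets (log2 ratio 0.11). Its other probe sets were below the floor, with 22.8 and 36.3 and with 3.5 and 3.4.

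At their brightest probe sets, all 3 detected steroid receptor genes had lower signals in the immobilized rat, while those for progesterone and estrogen receptor alpha were not detected. Nr3c1, the glucocorticoid receptor, gave 121.6 in the control rat and 89.3 in the immobilized rat at its brightest probe set, a log2 ratio of -0.44. Another Nr3c1 probe set gave 68.9 and 41.1 (-0.75), and the last was below the floor in both rats (6.7 and 2.9). Both detected Nr3c1 probe sets were thus lower, the dimmer one ending just above the floor. Nr3c2, the mineralocorticoid receptor, gave 108.9 and 70.8 (-0.62), but its other probe set, built from the same source record, gave 58.3 and 65.8 (0.17), so that its direction depended on the probe set. Esr2, estrogen receptor beta, gave 72.8 and 50.8 (-0.52), with another probe set below the floor at 2.0 and 0.8. Esr1, estrogen receptor alpha, gave 4.3 and 1.4. The 4 probe sets of Pgr, the progesterone receptor, lay between 1.3 and 35.8 over both arrays, all below the floor.

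Receptors for fatty acids, oxysterols and bile acids, grouped here with the repressor Nr0b2, were all detected. At their brightest probe sets 4 genes of this group were higher and 3 lower in the immobilized rat. Ppard was counted as lower although its probe sets disagreed. Ppara, which drives fatty acid oxidation, gave 54.8 in the control rat and 46.0 in the immobilized rat (log2 ratio -0.25), and Pparg, known for its part in fat cell formation, gave 80.2 and 104.8 (0.39). Ppard, the broadly expressed PPAR, gave 351.1 and 230.0 at its brightest probe set (-0.61). Its other probe sets gave 58.8 and 101.9 (0.79) and 68.1 and 63.8 (-0.09). Over the 3 Ppard probe sets the log2 ratios spanned 1.40, the widest span among the receptors, and no direction can be given for this gene.

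Of the oxysterol receptors, Nr1h3 (LXR alpha) gave 387.7 and 279.4 (-0.47), whereas Nr1h2 (LXR beta) gave 528.0 and 578.2 (0.13), with a further Nr1h2 probe set below the floor at 3.3 and 10.7. The bile acid receptor Nr1h4 (FXR) gave 90.0 and 118.1 (0.39). Nr0b2 (SHP) encodes a receptor without a DNA-binding domain that represses other receptors and is itself a known target of FXR. It gave 223.5 and 326.4 (0.55), 140.0 and 194.1 (0.47), and 87.2 and 90.0 (0.05) at its 3 probe sets. The Nr1h4 probe set and all 3 of Nr0b2 were thus higher in the immobilized rat, none by 1.5-fold. At the dimmest Nr0b2 probe set, the log2 ratio of 0.05 was well within the technical SD of 0.31. Fabp6, another known FXR target, was lower in the immobilized rat (-0.19), also within this SD. The other of its 2 probe sets was not above the floor on both arrays. In the immobilized rat the summed signal of 18 exocrine pancreas markers was 14275 against 7648 in the control rat, and their part in the receptor values was not tested.

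Among thyroid hormone and retinoic acid receptors, only the alpha forms were detected, both with higher signals in the immobilized rat. Thra, thyroid hormone receptor alpha, gave 241.8 in the control rat and 343.6 in the immobilized rat (log2 ratio 0.51), and a second probe set gave 70.6 and 101.1 (0.52). These ratios differed by 0.01, the closest agreement after Esrra, while the remaining probe set was below the floor (11.4 and 14.9). Thrb, the beta form, gave 21.0 and 20.4 and Rarb, retinoic acid receptor beta, 8.4 and 7.2, all below the floor. Rara, retinoic acid receptor alpha, gave 732.2 and 797.5 (0.12) at its brightest probe set and 46.7 and 90.1 (0.95) at another from the same source record. Its remaining probe set was below the floor in both rats, at 29.9 and 39.4. The size of the Rara difference therefore depended on the probe set, although both detected ones were higher.

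Of 11 genes for orphan and constitutively active receptors, 3 were detected on both arrays, and 2 of these hardly differed at their brightest probe sets. Hnf4a, a regulator of enterocyte and liver genes, gave 192.4 and 188.7 (-0.03), and its further probe sets gave 177.9 and 179.9 (0.02) and 83.5 and 54.2 (-0.62). Esrra, the estrogen-related receptor alpha that governs mitochondrial genes, gave 822.9 and 816.6, and 98.1 and 97.4 at its other probe set, both with a log2 ratio of -0.01. Nr2f6, an orphan receptor of the COUP-TF family, gave 507.3 in the control rat and 824.8 in the immobilized rat, 1.63-fold higher (0.70). Its log2 ratio was 2.26 times the technical SD, and its other probe set was below the floor at 6.1 and 23.4.

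The immediate early receptors Nr4a2 (NURR1) and Nr4a3 (NOR1), which are transcribed within minutes of a stimulus, gave 49.9 and 54.1 in the control rat and 29.9 and 19.9 in the immobilized rat. Set against the floor, Nr4a2 was at least 1.25-fold lower and Nr4a3 at least 1.35-fold lower. Their other probe sets lay below the floor, from 2.3 to 10.4 over both genes and arrays. Nr5a2 (LRH1), known for steroid synthesis in gut crypts, came close to the floor in the control rat only (35.3 and 22.5). The signals of Nr2f1 and Nr2f2 (the COUP-TFs), Nr2c2 (TR4), Nr5a1 (SF1) and Nr0b1 (DAX1) ranged from 1.1 to 17.99 on both arrays, all below the floor.

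**Figure D2:**
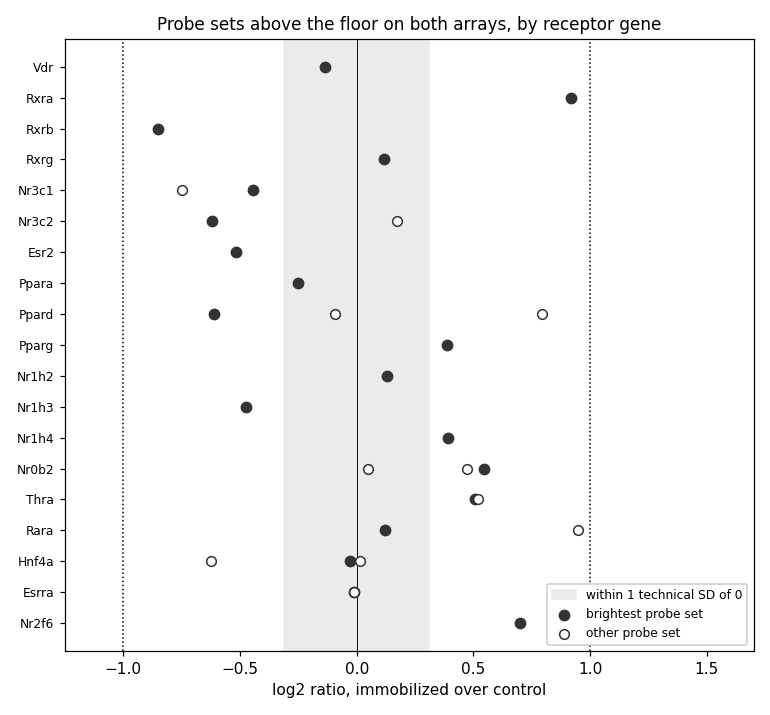
Log2 ratio (immobilized over control) of each of the 30 receptor probe sets above the floor on both arrays, by gene, with the brightest probe set of a gene filled and the others open. The grey band is 1 technical SD (0.31) on either side of 0 and dotted lines mark 2-fold; Nr3c2, Ppard and Hnf4a have probe sets on both sides of 0, and those of Thra and Esrra nearly coincide.

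How far probe sets of a receptor agreed could be read from 8 genes with several detected ones. They were all lower for Nr3c1 and Esrra, all higher for Nr0b2, Thra and Rara, and of opposite sign for Nr3c2, Ppard and Hnf4a. In 6 receptor genes a pair of detected probe sets was built from the same source record. These pairs differed by a median of 0.72 on the log2 scale (largest 0.89, for Ppard), and 3 of the 6 were of opposite sign. Over all 386 such pairs on the arrays the median difference was 0.19, the largest was 1.38, and 94 were of opposite sign. In 7 genes, Rxrg, Nr3c1, Esr2, Nr1h2, Thra, Rara and Nr2f6, a detected probe set stood beside another that was not above the floor.

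The receptors spread over all levels of signal. Of the 19 receptors, 7 had a mean signal under 100, 6 one from 100 to 300 and 6 one of 300 or more. The technical SD over all genes was 0.33, 0.32 and 0.26 in these classes, and 15.0%, 15.2% and 10.4% of all genes differed by at least 1.5-fold. The receptors at 1.5-fold numbered 3, 1 and 1 in the same classes: Rxra, Rxrb and Nr3c2, then Ppard, then Nr2f6.

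**Figure D3:**
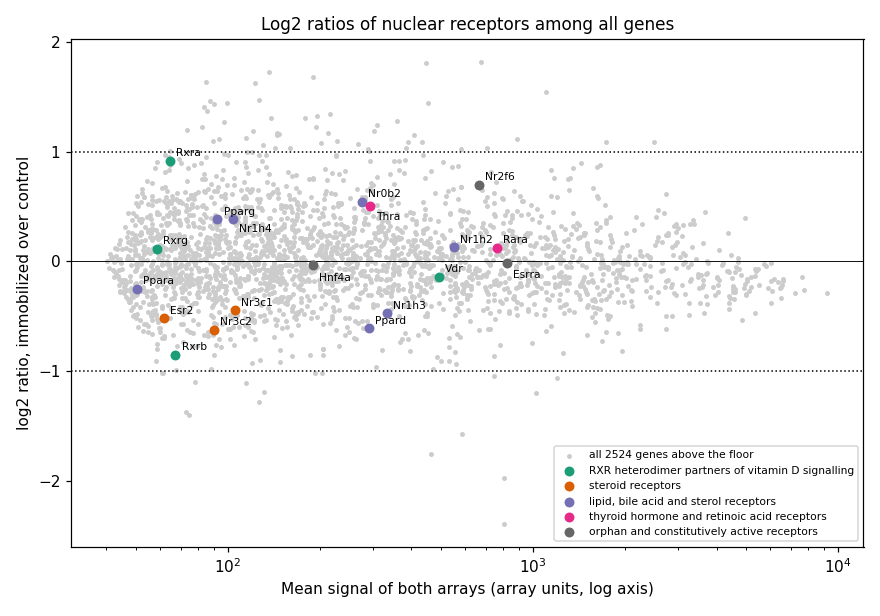
Log2 ratio (immobilized over control) against the mean signal of both arrays (log axis) for the 19 detected receptors, coloured by group, among all 2524 detected genes in grey. Dotted lines mark 2-fold; every receptor lies between them, with Rxra (0.92) and Rxrb (-0.85) at the edges and Vdr (-0.14) near 0.

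Genes that supply ligands to these receptors or are known targets of them were followed in 11 lists, and receptor cofactors in 2 more. Over the 13 lists, 114 distinct genes were detected, 53 higher and 61 lower in the immobilized rat (53.5% lower, against 50.6% of all genes), with a median log2 ratio of -0.04. At 2-fold, 7 of them were higher (6.14%, against 2.02% of all genes) and 1 was lower (0.88%, against 0.674%). The lists were chosen with earlier results of these data known, so these contrasts with all genes cannot show enrichment. As genes without a probe set named by a single symbol entered no list, each list is a part of its pathway.

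For vitamin D, a probe set was present for 15 of 22 listed genes, of which 8 were detected, 3 higher and 5 lower, with none at 2-fold and a median of -0.29. This median ranged from -0.31 to -0.14 over the scalings tried and was -0.06 at a floor of the 30th percentile. S100g (calbindin-D9k), which ferries calcium across the enterocyte and depends on vitamin D, gave 7243 and 5742 (-0.34, and -0.99 at a second probe set). Slc8a1, a sodium-calcium exchanger, gave 297.3 and 186.9 (-0.67), and the calcium pump Atp2b1 155.0 and 128.1 (-0.28). Each ratio came from the only probe set above the floor on both arrays, of 5 for Slc8a1 and 3 for Atp2b1. Cubn, an uptake receptor for vitamin D-binding protein in kidney and for cobalamin in gut, gave 207.1 and 148.5 (-0.48). Higher signals came from the cytochrome P450 Cyp3a9 (4262 and 5623, log2 ratio 0.40) and the alkaline phosphatase Alpl (280.7 and 361.6, 0.37). Cyp24a1, which inactivates vitamin D and is a classic target of its receptor, gave a higher signal in the immobilized rat (16.3 and 38.8). Both of its signals were below the floor of 39.9, the second only just. So were Cyp27b1, which activates vitamin D in the kidney (28.6 and 30.5), and the kidney calbindin Calb1 (1.9 and 4.1). In the same pair of arrays, enterocyte markers were lower for 12 of 17 genes with a median of -0.21, and their part in the vitamin D list was not tested.

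Retinoid genes were detected for 7 of 13 with a probe set, 3 higher and 4 lower, with a median of -0.02 that turned positive after quantile normalization or loess. Adh4, an alcohol dehydrogenase that also oxidises retinol, was 2.34-fold higher (116.3 and 272.2), and the retinol dehydrogenase Rdh16 had a log2 ratio of 0.77, with 0.71 at a second probe set. The related Rdh7 was at -0.57 and the retinal dehydrogenase Aldh1a1 at -0.24.

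PPAR target genes formed the longest list, with 30 of 37 detected, 14 higher and 16 lower, and a median of -0.03 that turned positive after quantile normalization or loess. At 2-fold stood Decr1, which acts on unsaturated fatty acids in mitochondria (564.3 and 1645, 2.92-fold higher), the carnitine transporter Slc22a5 (2.05-fold higher), the enoyl-CoA isomerase Eci1 (2.01-fold higher, with the lowest of its probe sets at a log2 ratio of 0.49) and, in the other direction, the fatty acid carrier Cd36 (717.5 and 212.8, 3.37-fold lower). The other of the 2 Cd36 probe sets was not above the floor on both arrays. None of the 3 PPAR genes was at 2-fold.

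LXR and sterol genes had 4 of 7 detected, with the lipogenic regulator Srebf1 at 0.66 and Fasn (-0.22, but 0.75 at another probe set), Apoe (-0.18) and Scd2 (-0.10) below 0, and a median of -0.14. Bile acid genes had 4 of 12 detected, 2 higher and 2 lower, with a median of 0.04. The acyl-CoA synthetase Slc27a2 was 2.28-fold higher (184.2 and 419.7) and Akr1c14, a hydroxysteroid dehydrogenase, stood at -0.83 (0.21 at a further probe set). Cyp27a1, which makes bile acids and also hydroxylates vitamin D, was at 0.26, and the ileal bile acid-binding protein gene Fabp6, a known FXR target, at -0.19 (1307 and 1144).

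Targets of the xenobiotic receptors PXR and CAR had 15 of 21 detected, 8 higher and 7 lower, with a median of 0.03. The sulfotransferase Sult1a1 was 3.10-fold higher, from a control signal near the floor (41.4 and 128.5), and the epoxide hydrolase Ephx1 was 2.22-fold higher (253.4 and 563.6). The other of the 2 Sult1a1 probe sets was not above the floor on both arrays. The exporter Abcc3 was at 0.65 and the cytochrome P450 Cyp2b15 at 0.62.

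HNF4A target genes had 10 of 14 detected, 3 higher and 7 lower, none at 2-fold. Their median was -0.15, moving to -0.04 at the least of the scalings tried. The apolipoprotein genes Apoa4 (4872 and 3911, log2 ratio -0.32) and Apoa1 (10156 and 8330, -0.29; -0.42 at another probe set) and the protease inhibitor Serpina1 (-0.28) were lower, and the thyroxine carrier Ttr was higher (0.28). This list shared 4 detected genes (Apoa1, Apoa4, Apob and Fabp1) with the enterocyte markers, whose median was -0.21, and their part in it was not tested.

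Genes known to respond to glucocorticoids had 10 of 14 detected, 3 higher and 7 lower, with a median of -0.14 and none at 2-fold. Nfkbia, an inhibitor of NF-kappa-B, gave 318.5 and 215.2 (-0.57; -0.83 at another probe set), and the phosphatase gene Dusp1 125.3 and 89.5 (-0.48; -0.95 to -0.25 over its probe sets). Higher signals came from the transcription factor Cebpb (0.70) and the glutamine synthetase Glul (0.34). Of genes of mineralocorticoid-responsive transport, 4 of 10 were detected, with the sodium pump subunit Atp1b1 at -0.29, the kinase Sgk1 at -0.17, the sodium-proton exchanger Slc9a3 at -0.03 and the ubiquitin ligase Nedd4 at 0.09. The potassium channel Kcnj1 was above the floor in the control rat only (197.5 and 28.6), at least 4.94-fold lower, but a different Kcnj1 probe set was detected on both arrays at 0.36.

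Thyroid hormone genes had 8 of 12 detected, 3 higher and 5 lower, with a median of -0.12. Me1, malic enzyme, was at -0.55 (-1.08 to 0.15 over its probe sets) and the deiodinase Dio3 at -0.32, while the lactase gene Lct was at 0.41 (0.00 at another probe set) and the corepressor gene Hr at 0.40. Of sex steroid metabolism genes 7 of 15 were detected, 3 higher and 4 lower (median -0.13). Besides Akr1c14, Hsd17b2, which inactivates estradiol and testosterone, gave 3305 and 2154 (-0.62), and Hsd17b4 was at -0.47 (-1.07 to -0.00 over its probe sets), with Hsd17b8 at 0.24.

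Cofactors of the receptors showed no 2-fold difference. Coregulators had 9 of 12 genes with a probe set detected, 6 higher and 3 lower, with a median of 0.06. Cited2 was at -0.48 (0.65 at another probe set), Ncoa4 at -0.45 (965.7 and 707.6), Pnrc2 at 0.46 and the chromatin protein Hmgb1, which aids steroid receptor binding to DNA, at 0.45. The chaperones that hold steroid receptors ready for hormone were detected in 10 of 10, 6 higher and 4 lower, with a median of 0.08. Among them were Hsp90ab1 (2663 and 3208, log2 ratio 0.27), Ppid (0.36), Hspa4 (0.25) and Dnaja1 (-0.24, but 0.81 at another probe set).

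**Figure D4:**
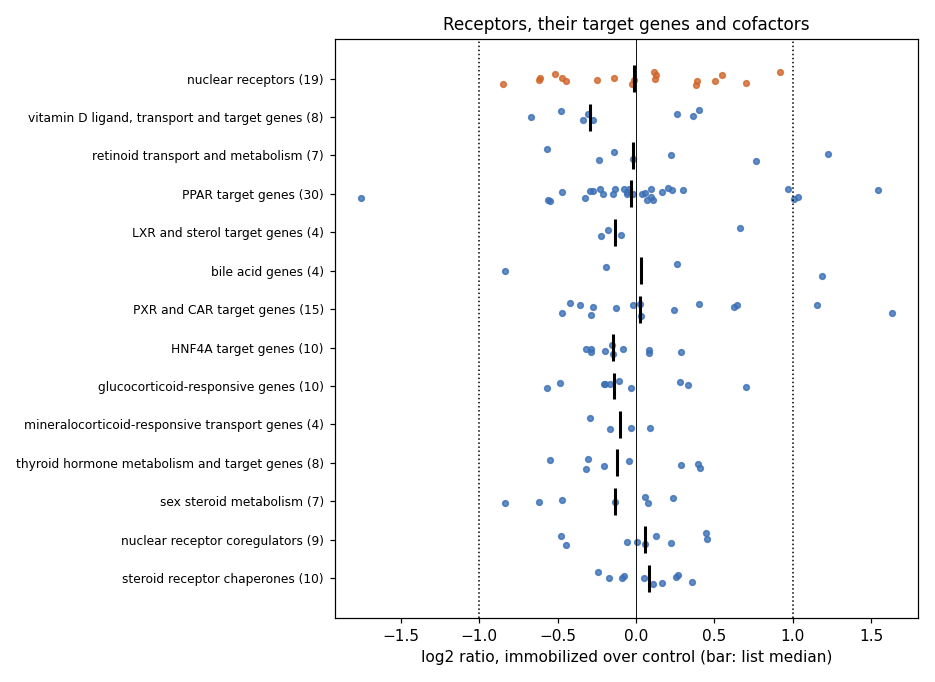
Log2 ratio (immobilized over control) of each detected gene in the receptor set (orange) and in the 13 lists of target, ligand and cofactor genes (blue), with the number of genes in brackets and a bar at each median. Points are spread vertically for legibility and dotted lines mark 2-fold; the receptors have a median of -0.01, and the vitamin D list one of -0.29 that is -0.06 at a floor of the 30th percentile.

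Markers checked the tissue. All 17 enterocyte genes with a probe set were detected, led by Apoa1, Fabp1 and Anpep, with a summed signal of 73904 in the control rat and 64822 in the immobilized rat. Of 18 exocrine pancreas genes 17 were detected, 16 of them higher and 6 at 2-fold, with a median of 0.76. For smooth muscle 6 of 9 were detected, 3 of them higher and 3 lower, with a median of 0.25 (summed signals 1519 and 1704). Of its 3 brightest genes, Acta2 gave 90.3 and 288.9 (1.68, but -0.13 at another probe set). The other 2 were Tpm1, with 1062 and 951.1 (-0.16), and Myl9, with 124.0 and 122.5 (-0.02, but 0.79 at another probe set). For fibroblasts and endothelium 7 of 10 were detected, with a median of -0.01 (4413 and 3614), and for immune cells 9 of 18, 7 of them higher, with a median of 0.18 (9852 and 11145). For enteroendocrine and neural cells 6 of 14 were detected, with a median of -0.06 (2914 and 2846), and for liver 6 of 11, with a median of -0.07 (6399 and 6035). Which cells gave the receptor signals was not tested.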

How the data were processed

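The deposited signal intensity values, 1 per probe set on a linear scale, were made by the authors from scans of 2 rat U34A arrays. Per the series' design text they used the manufacturer's software, version 4.0, with its filtering and normalization routines, whereas the submitters' processing notes name MAS5. Detection calls were not used here. Of 8799 probe sets, 7006 had 1 gene symbol in the array annotation, 6985 of them updated through the gene ID in RefSeq, and 308 with several and 1426 with none entered no gene value. The mean deposited signal was 312.0 in the control and 300.6 in the immobilized rat, and the number of arrays limits the precision.

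The immobilized array was multiplied by 1.016, the floor set at the 50th percentile (39.9) and log2 ratios taken where both arrays exceeded it, otherwise a bound against the floor. A gene was its probe set of highest mean signal. Groups came from the sample titles. With 1 array per group no test was made. Named were every receptor and, per list, genes at 2-fold (bounds included), the 4 farthest from 0 and 5 fixed vitamin D genes. The 3 brightest genes of each marker list were also taken, of which those of enterocytes and smooth muscle are printed. The receptors and lists were chosen with earlier results of these data known. The computation was tested on simulated data. The scaling (as deposited, by quantiles or by loess with a span of 0.3), the floor (30th or 70th percentile), the fold (1.5 or 3), the averaging of probe sets and the counting of bounds were varied. Python 3.11.15, numpy 2.4.6, pandas 2.3.3, statsmodels 0.14.6 and matplotlib 3.10.9 were used.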

Additional observations from a re-analysis of the deposited data

How the results depend on the processing

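None of the 19 receptor log2 ratios changed sign under the deposited scaling, quantile normalization or loess, where the largest move was 0.09. Averaging probe sets moved Nr3c2 to -0.22, Ppard to 0.03 and Rara to 0.54, by more than the technical SD. The count at 2-fold, 0 in the main setting, was 1 at the 30th percentile floor, where 24 receptors were detected and Nr4a3 entered with a log2 ratio of -1.44, and 5 with a threshold of 1.5-fold (4 with probe sets averaged as well, added after the data were seen). With the floor at the 70th percentile, which leaves out genes dimmer than 126.9, 10 receptors were detected and 5 of them were lower. The receptor median ranged from -0.09 to 0.06. List medians moved too: at the 30th percentile floor the vitamin D list was at -0.06 and the bile acid list at -0.19, at the 70th percentile floor the chaperone list was at -0.08, and with probe sets averaged the LXR list was at 0.08 and the PXR list at -0.02. The PPAR list was positive at both floors too. No paired analysis was possible because each group had 1 array. Signal over background limits Rxra, Rxrb, Rxrg, Esr2, Ppara, Nr4a2 and Nr4a3 most.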
